A study of Mus musculus with 32 samples.

Results

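Trefoil factors and gastric-type genes were followed in 32 tumours of the mouse line KPC36. The set held 10 genes: the trefoil factors Tff1, Tff2 and Tff3, the mucins Muc1, Muc5ac and Muc6, the annexin Anxa10, the claudin Cldn18, and the transcription factors Gata6 and Hnf4a. They were taken by symbol from the 55103 genes of the deposited count table, all 10 were found there, and all 10 were among the 20474 genes with enough counts to be tested. Tff1 was chosen by its measured level, which was low in the untreated tumours of the photon arm, so its levels in the groups are described below without a test between groups. The other 9 genes entered by their function, but the whole set was chosen with earlier results of these data known.

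Each of the 4 groups held 8 libraries of bulk RNA from whole tumour tissue: carbon-treated tumours (carbon_treated), the untreated carbon controls (carbon_ctrl), photon-treated tumours (photon_treated) and the untreated photon controls (photon_ctrl). All groups share the KPC36 line, a single mouse line used as a model of pancreatic ductal adenocarcinoma, and the labels call the cell type malignant. Neither its genotype, the host strain, sex and age, the site of growth nor the radiation dose is in the labels used here. Tumours were collected 4 and 7 days after treatment, and the day of a given library is not in its labels. Carbon ions are heavy charged particles that deposit most of their energy near the end of their path, and photons, as X-rays, are the common form of radiotherapy. Levels are given in CPM, the usual unit for the count of a gene relative to the scaled total of its library.

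Trefoil factors are small secreted peptides stabilised by disulphide bonds, which are packed together with mucins into the mucus of the gut. In the stomach Tff1 and Muc5ac are made by surface mucous cells and Tff2 and Muc6 by mucous neck and gland cells, whereas Tff3 is the trefoil factor of intestinal goblet cells. The normal pancreatic duct makes little of these products. Precursor lesions and well-differentiated pancreatic tumours often turn them on, and Gata6 and Hnf4a are regulators of the classical, epithelial state of such tumours.

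The libraries held between 13891863 and 71645903 estimated counts. D titles occurred in 4 of 8 carbon controls, 3 of 8 carbon-treated libraries and no photon library, and what the letter means is not stated. The 14 epithelial markers examined were detected in every group, with a summed level of 2224 to 4833 CPM per library. The 9 fibroblast markers reached 5988 to 27758 CPM, so the libraries labelled malignant also held stromal RNA. In bulk tissue fewer cells of a type and less RNA per cell cannot be told apart, which applies to each value below.

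The 3 trefoil genes lie side by side on the minus strand of mouse chromosome 17 (build mm10), Tff3 at chr17:31125306-31129646, Tff2 at chr17:31141049-31144282 and Tff1 at chr17:31161395-31165277, within 39972 bases. Neighbours though they are, their levels differed widely. Per kilobase of exon, the scale on which genes can be compared, the mean level over 32 libraries was 98.4 CPM per kb for Tff2, 22.9 for Tff1 and 0.639 for Tff3. On that scale Muc1 stood highest of the 10 genes at 108 CPM per kb. Below Tff2 followed Hnf4a at 45.6, Anxa10 at 26.6, Gata6 at 10.99, Muc6 at 3.72, Muc5ac at 1.25 and Cldn18 at 0.527 CPM per kb. The secreted gastric gel mucins were thus far below the membrane mucin Muc1 in these tumours.

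Tff1, the trefoil peptide of the gastric surface, had its lowest group levels in the photon controls. There it ran from 1.22 CPM in the lowest library over a median of 2.89 to 13.4 CPM in the highest, with a mean of 4.75 ± 4.26 CPM (SD, n = 8). After photons it ran from 5.72 over a median of 11.8 to 43.4 CPM, with a mean of 19.3 ± 15.2. In the carbon controls the range was 2.73 to 36.1 CPM with a median of 15.002 and a mean of 17.6 ± 11.1, and after carbon ions it was 6.38 to 34.1 CPM with a median of 25.03 and a mean of 22.7 ± 9.45. The groups overlapped, and 3 of 8 carbon controls, 2 of 8 carbon-treated libraries and 5 of 8 photon-treated libraries lay at or below the highest photon control. The statement that Tff1 was low in the photon controls therefore holds for the group and not for every library. Within the photon-treated group the high values came from replicates 2, 4 and 7 at 43.4, 35.2 and 32.6 CPM, while the other 5 libraries lay at or below 12.3 CPM. These values, of which those of the photon controls chose the gene, correspond to a log2 fold change of 2.01 for photons against their controls and 1.87 for the carbon controls against the photon controls. Carbon ions against their own controls gave 0.37, and the irradiated groups against each other gave 0.23. These depended on the libraries and the fit, with 1.01 and 0.45 from M-titled libraries alone and 0.60 and 0.36 by limma-voom. The values of 2.01 and 1.87 share the photon controls.

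Part of Tff1 is overlapped for 1660 bases, exons included, by Gm15318, an antisense gene on the plus strand at chr17:31152752-31163054. The libraries were stranded, but whether the counting used strand is not given in the sources used here, so reads of the pair may have been mixed. Gm15318 was at 0.692 and 0.566 CPM in the carbon controls and carbon-treated libraries and at 0.374 and 1.11 CPM in the photon controls and photon-treated libraries. Its photon log2 fold change of 1.54 ± 0.54 (SE) had an edgeR adjusted p of 0.0930 over all genes and did not pass. Without photon control replicate 2 it was 1.95 and passed (adjusted p 0.0328), as it did under 1 of 7 other alternatives (adjusted p 0.0465). Once each group mean was subtracted, its level correlated with that of Tff1 across the 32 libraries at r = 0.548, and with that of Tff2, which it does not overlap, at r = 0.659.

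**Figure D1:**
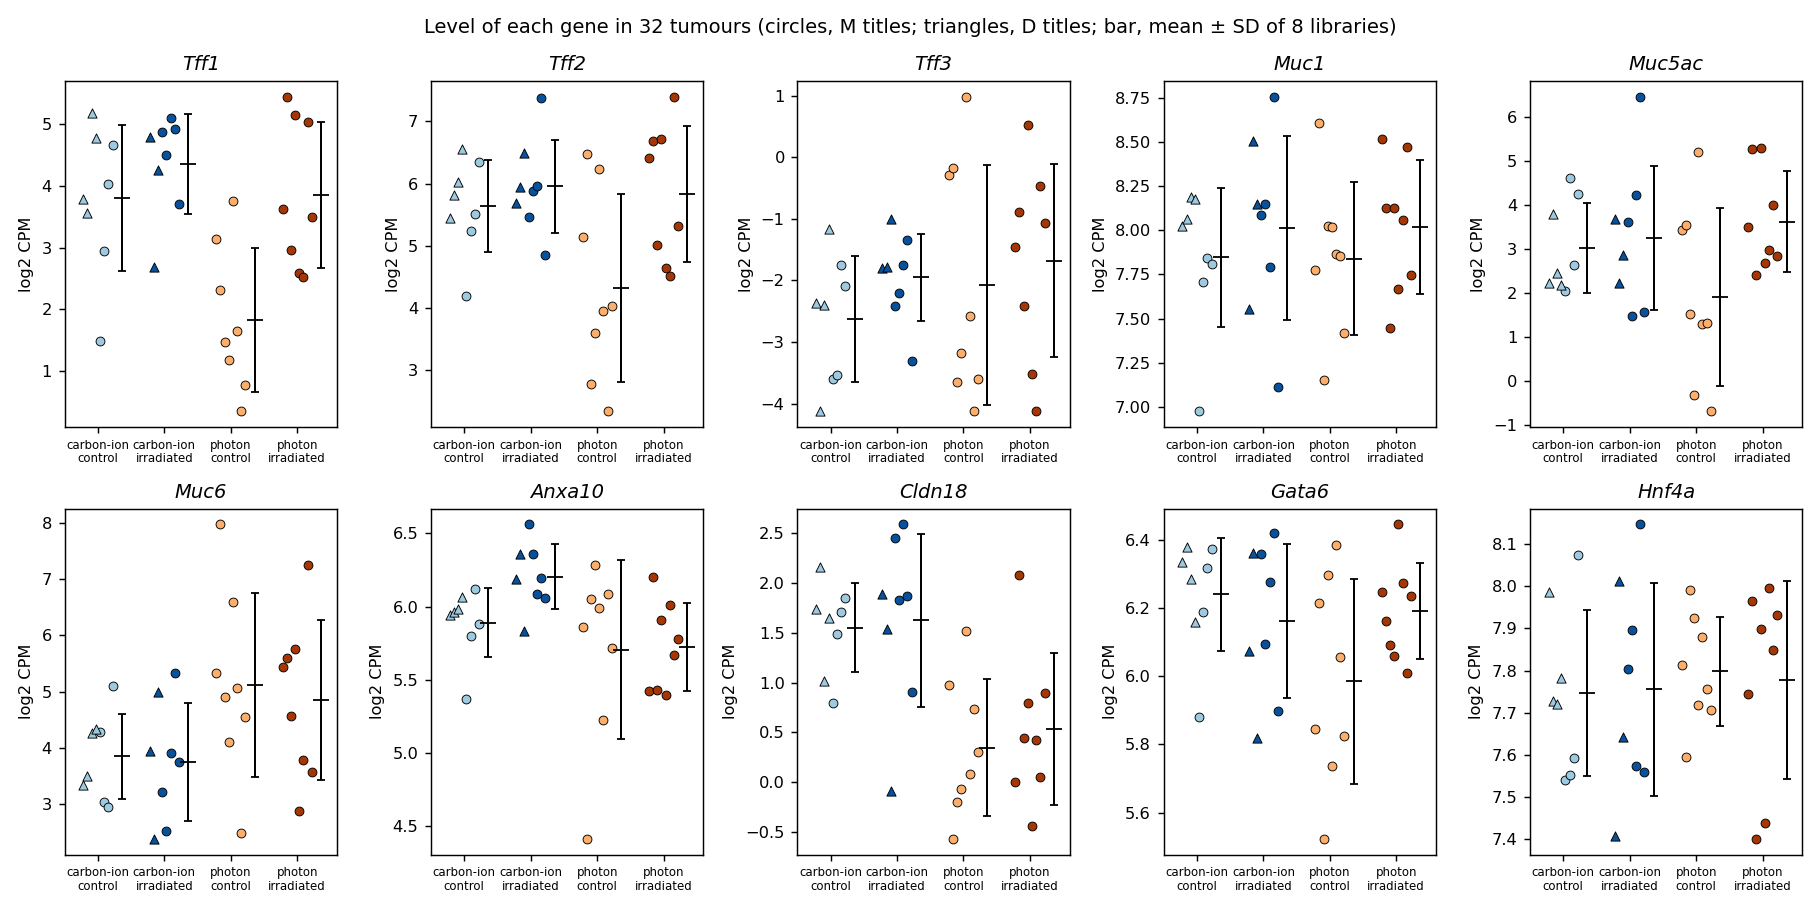
Level of each of the 10 genes on a log2 CPM axis in the 4 groups of 8 tumours. Circles are libraries with M titles, triangles those with D titles, and bars give the mean ± SD of 8 libraries. Tff1 means on the CPM scale are 17.6, 22.7, 4.75 and 19.3 from left to right, and Gata6 and Hnf4a vary least between libraries.

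Tff2, the trefoil peptide of mucous neck cells, was the most abundant of the 3. The photon controls ran from 4.99 CPM over a median of 15.9 to 88.8 CPM and the photon-treated libraries from 22.7 over 62.2 to 168 CPM. The carbon controls ran from 18.1 over 50.6 to 93.7 CPM and the carbon-treated libraries from 28.7 over 59.9 to 166 CPM. All 8 photon-treated libraries lay above the photon control median and 3 lay above the highest control, so the groups overlapped. The photon log2 fold change of Tff2, 1.19 ± 0.50 (standard error, SE), did not pass at an edgeR adjusted p of 0.154. Its approximate 95% interval ran from 0.21 to 2.16. Photon control replicate 2, at 88.8 CPM, set this outcome: without it the log2 fold change was 1.62 and the adjusted p 0.0414. After carbon ions the log2 fold change of Tff2 was 0.36 with an interval from -0.60 to 1.32. The difference between both effects was -0.83, with an interval from -2.19 to 0.53 and an adjusted p of 0.610, so neither equal nor unequal effects were shown.

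Tff3, the goblet cell trefoil factor, was near the limit of detection. Its highest library reached 1.92 CPM, which was photon control replicate 5. The group means were 0.141 ± 0.130 and 0.227 ± 0.123 CPM in the carbon controls and carbon-treated libraries, and 0.465 ± 0.680 and 0.428 ± 0.451 CPM in the photon controls and photon-treated libraries. It was at 0 in 3 libraries, carbon control replicate 2, photon control replicate 7 and photon-treated replicate 6, where 3 counts would equal 0.117, 0.166 and 0.154 CPM. In no contrast did Tff3 pass. Its log2 fold change between the controls of both arms was -1.74 ± 0.78 (SE), adjusted p = 0.168. That value was -0.93 without photon control replicate 5 and -0.74 by limma-voom, and the medians had the other order, 0.134 CPM in the carbon and 0.0819 CPM in the photon controls.

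Muc5ac and Muc6 encode gel-forming mucins of the stomach surface and glands and lie close together on chromosome 7, Muc6 at chr7:141633456-141655319 on the minus strand and Muc5ac at chr7:141788972-141819231 on the plus strand. They differed in which group stood high. Muc6 ran from 5.54 CPM over a median of 31.5 to 251 CPM in the photon controls and from 7.26 over 33.3 to 152 CPM after photons. In the carbon arm it ran from 7.63 over 15.2 to 34.4 CPM in the controls and from 5.15 over 14.2 to 39.9 CPM after irradiation. Only 1 of 8 carbon controls lay above the photon control median and none above the highest.

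Muc6 was thus lower in the carbon than in the photon controls, with log2 fold change -1.94 ± 0.61 (SE), edgeR adjusted p = 0.0407. The size leaned on photon control replicate 2 at 251 CPM: without it the log2 fold change was -1.11 and the adjusted p 0.216. Between the irradiated groups the value was -1.38 ± 0.60 (SE), adjusted p = 0.151. After carbon ions Muc6 gave 0.07 (95% interval -1.10 to 1.23) and after photons -0.49 (interval -1.65 to 0.66). Without photon control replicate 2 the photon value of Muc6 was 0.33, so that 1 library set its direction.

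Muc5ac ran from 0.561 CPM over a median of 2.62 to 36.8 CPM in the photon controls and from 5.22 over 9.50 to 39.3 CPM after photons. All 8 photon-treated libraries lay above the control median and 2 above the highest control. The log2 fold change of 0.95 ± 0.72 (SE) did not pass, with an edgeR adjusted p of 0.472. It was 1.78 by limma-voom (adjusted p 0.184) and ran from 0.63 to 1.87 with 1 library left out, the highest without photon control replicate 5, and passed in none of these fits. In the carbon controls Muc5ac ran from 4.09 over 5.74 to 24.4 CPM and after carbon ions from 2.70 over 9.62 to 87.9 CPM, where the log2 fold change was 0.88 ± 0.72 (SE). A single library, carbon-treated replicate 7, held the 87.9 CPM, and the next in its group was at 18.5 CPM. Without it the value after carbon ions was -0.24.

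Muc1, a mucin anchored in the apical membrane of epithelial cells (chr3:89229057-89233381, plus strand), was high in all groups. Its means were 237 ± 54.2 and 273 ± 94.0 CPM in the carbon controls and carbon-treated libraries, and 238 ± 74.0 and 267 ± 68.9 CPM in the photon controls and photon-treated libraries. The log2 fold changes were 0.20 after carbon ions and 0.17 after photons, both ± 0.20 (SE), and neither passed. The 95% intervals of -0.19 to 0.60 and -0.23 to 0.56 bound what could have been missed.

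Cldn18, a tight junction protein with stomach and lung forms (chr9:99689461-99717267, minus strand), had low counts and a lower median in both photon groups. It ran from 1.68 CPM over a median of 3.14 to 4.42 CPM in the carbon controls and from 0.618 over 1.09 to 2.79 CPM in the photon controls. After irradiation it ran from 0.885 over 3.54 to 5.93 CPM with carbon ions and from 0.681 over 1.30 to 4.17 CPM with photons. All 8 carbon controls lay above the photon control median and 5 above the highest photon control, so the ranges overlapped.

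The level of Cldn18 was 1.14 higher on the log2 scale in the carbon than in the photon controls, with SE 0.35 and edgeR adjusted p = 0.0365. The irradiated groups differed by a like 1.09 ± 0.35 (SE), which missed the threshold with an adjusted p of 0.0579. It passed without photon-treated replicate 2, the highest of that group, or without carbon-treated replicate 3 or 8. Against its own controls neither value of Cldn18 passed, with 0.21 (95% interval -0.46 to 0.88) after carbon ions and 0.26 (interval -0.43 to 0.95) after photons. With M-titled libraries alone, the control contrast gave 1.06 with an adjusted p of 0.144 for Cldn18 and -1.82 with 0.257 for Muc6. The calls of both genes therefore did not hold within that subset, which leaves 4 carbon controls. With each library left out in turn, the control contrast passed in 6 of 16 fits for Cldn18 and in 6 of 16 for Muc6.

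Markers of cell types moved with the same contrast, in which 5.13% of all genes were higher and 4.01% lower. Of 12 epithelial markers tested, 4 were higher in the carbon than in the photon controls (Cdh1, Cldn3, Cldn4 and Cldn7) and none lower, with a median log2 fold change of 0.43, and the summed level ran from 2760 to 4833 CPM against 2431 to 3991 CPM. Of the 9 fibroblast markers 2 were lower (Col1a2 and Pdgfra), with a median of -0.59, and the sum ran from 6611 to 17644 CPM against 13039 to 27758 CPM. Of 7 endothelial markers 1 was lower (Emcn), with a median of -0.46. Between the irradiated groups, 1 of 12 epithelial markers was higher after carbon ions (Cldn7, list median 0.52) and 4 of 7 macrophage markers were (list median 0.58), where 3.55% of all genes were. Of the 7 skeletal muscle markers none passed there, but all 7 values were above 0 with a median of 3.16, and their sum ran from 3.25 to 3093 CPM after carbon ions and from 0.962 to 314 CPM after photons. None of these markers was at 0 throughout a group. Their part in the differences of Cldn18 and Muc6 was not tested.

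Because Cldn18 and Muc6 were the genes that passed, and Gata6 belongs to the same set, the promoters of both genes were searched for GATAA on either strand (TTATC on the reverse), a core motif of GATA factors. The sequences are from RefSeq (GRCm38.p6), cover the 250 bases before an annotated start and read 5′ to 3′ along the gene, with matches in capitals. Cldn18 has 2 annotated starts in this table. The windows are Muc6 at chr7:141655394-141655643, Cldn18 upstream start at chr9:99717268-99717517 and Cldn18 internal start at chr9:99710064-99710313, all on the minus strand.
Muc6: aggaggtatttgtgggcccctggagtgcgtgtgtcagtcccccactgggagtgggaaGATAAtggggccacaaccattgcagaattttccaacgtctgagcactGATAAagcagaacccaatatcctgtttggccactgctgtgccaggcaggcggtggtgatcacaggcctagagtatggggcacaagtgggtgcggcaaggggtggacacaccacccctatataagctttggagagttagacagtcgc
Cldn18 upstream start: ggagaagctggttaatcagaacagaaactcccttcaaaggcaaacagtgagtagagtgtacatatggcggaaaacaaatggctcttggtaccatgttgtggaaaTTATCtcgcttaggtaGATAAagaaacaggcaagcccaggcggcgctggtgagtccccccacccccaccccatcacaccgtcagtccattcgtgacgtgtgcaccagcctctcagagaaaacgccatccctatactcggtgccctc
Cldn18 internal start: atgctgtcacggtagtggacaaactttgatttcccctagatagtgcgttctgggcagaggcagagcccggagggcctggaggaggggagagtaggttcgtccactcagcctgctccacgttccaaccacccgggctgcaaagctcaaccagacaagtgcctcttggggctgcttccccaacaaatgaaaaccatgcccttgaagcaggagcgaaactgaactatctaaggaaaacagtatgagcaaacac

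The Muc6 window and the window of the upstream Cldn18 start held 2 matches each, and that of the internal start held 0. Of all 32851 windows of this length, 22.6% held at least 1 match and 4.28% at least 2. Windows were found for 5 of the 10 genes, 7 windows in all, and 3 of them held the motif, the other one at Hnf4a. A match is a run of letters and shows no binding, and the counts do not tell from which start Cldn18 was transcribed.

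Anxa10, a calcium-dependent membrane-binding protein of the gastric mucosa (chr8:62057042-62123150, minus strand), ran from 41.2 CPM over a median of 61.8 to 69.4 CPM in the carbon controls and from 56.9 over 73.0 to 94.4 CPM after carbon ions. Of the irradiated libraries, 7 of 8 lay above the control median and 5 above the highest control. The log2 fold change of 0.32 ± 0.17 (SE) had an unadjusted p of 0.0712 and an edgeR adjusted p of 0.901. In the photon arm Anxa10 ran from 21.2 over 60.8 to 78.0 CPM in the controls and from 42.0 over 52.8 to 73.4 CPM after photons, which gave a log2 fold change of -0.04 (interval -0.38 to 0.29). All 8 carbon-treated libraries lay above the photon-treated median. This contrast gave log2 fold change 0.47 ± 0.17 (SE), adjusted p = 0.0889.

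The transcription factors were the steadiest members. Hnf4a, a nuclear receptor of liver, gut and pancreas (chr2:163506808-163572910, plus strand, overlapped by the antisense gene Hnf4aos), had group means between 217 ± 30.6 and 223 ± 20.1 CPM. Its log2 fold change was 0.02 after carbon ions (95% interval -0.19 to 0.22) and -0.01 after photons (interval -0.21 to 0.19). Gata6, a zinc finger factor of foregut endoderm, was at 75.9 ± 8.11 CPM in the carbon controls and 72.4 ± 11.03 CPM after carbon ions. In the photon arm it was at 64.5 ± 13.3 CPM in the controls and 73.3 ± 7.29 CPM after photons. All 8 photon-treated libraries lay above the photon control median, and the log2 fold change of 0.18 ± 0.11 (SE) had an edgeR adjusted p of 0.317. Gata6 between the controls of both arms gave 0.24 ± 0.11 (SE), adjusted p = 0.168.

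**Figure D2:**
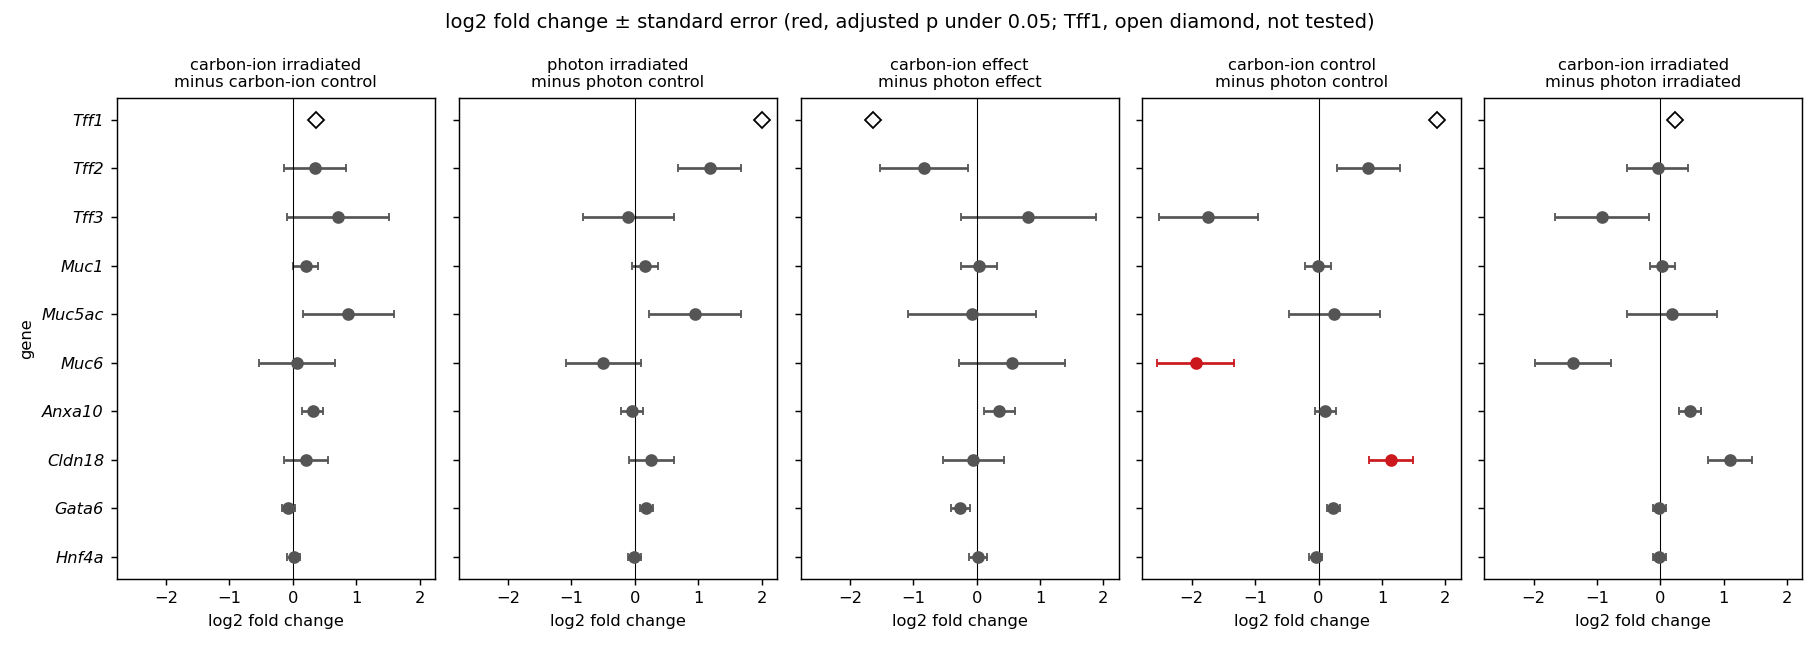
Log2 fold change ± standard error of each gene in the 5 contrasts, from the edgeR fit to all 32 libraries. Genes past an adjusted p of 0.05 are red, which holds for Cldn18 (1.14) and Muc6 (-1.94) between the controls of both arms, and Tff1, shown as an open diamond, was not tested.

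Counted over the 9 tested members, none passed after carbon ions, where 0% of all genes passed, and none had an unadjusted p under 0.05, against 5.75% of all genes. None passed after photons, where 3.81% of all genes passed, and 1 member (Tff2) had an unadjusted p under 0.05, against 21.5% of all genes. The difference between the effects passed for none of the 9, against 0.0781% of all genes, and none had an unadjusted p under 0.05, against 13.0%. Between the controls of both arms 2 of 9 passed, where 9.14% of all genes did, and 4 members (Cldn18, Gata6, Muc6 and Tff3) had an unadjusted p under 0.05, against 23.1%. Cldn18 was higher in the carbon controls, as were 5.13% of all genes, and Muc6 lower, as were 4.01%. Between the irradiated groups none passed, where 5.08% did, and 3 members (Anxa10, Cldn18 and Muc6) had an unadjusted p under 0.05, against 25.2%. DESeq2 and limma-voom also called none in the carbon-ion, photon and difference contrasts. Between the irradiated groups limma-voom called none and DESeq2 called Cldn18. The median log2 fold change of the 9 members was 0.21 after carbon ions and 0.17 after photons, where that of all genes was 0.01 and -0.00.

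Most members, but not the transcription factors, varied more between tumours of 1 group than genes of a similar level. The within-group standard deviation of log2 CPM was 1.51 for Muc5ac, 1.26 for Muc6, 1.099 for Tff1 and 1.07 for Tff2, where genes of a similar level had medians of 0.331, 0.231, 0.290 and 0.206. It exceeded that of 99.2%, 99.5%, 98.7% and 99.4% of those genes. Muc1 at 0.436 exceeded 97.7% and Anxa10 at 0.377 exceeded 92.9%. Tff3 at 1.40 exceeded 93.4% and Cldn18 at 0.706 exceeded 83.0%. The value of Tff3 is less certain, since it was near the limit of detection. Gata6 at 0.217 and Hnf4a at 0.209 lay among ordinary genes, above 62.9% and 57.6%. Against all tested genes, whatever their level, the shares were 58.6% for Muc1, 52.7% for Anxa10, 26.7% for Gata6 and 24.3% for Hnf4a.

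Levels of the secreted products varied together from tumour to tumour. After subtraction of group means, correlations of log2 CPM were computed for all 45 pairs of members over the 32 libraries, with 100000 permutations within groups and Benjamini-Hochberg adjustment over the pairs. By Pearson's r 19 pairs had an adjusted p under 0.05, and by Spearman's rho 15 of these. Tff2 and Tff3 had r = 0.856 and rho = 0.851, with a permutation p of 1e-05 for r, the smallest these permutations can give, and an adjusted p of 0.00018. Tff2 and Muc6 had r = 0.802 and rho = 0.746 with the same adjusted permutation p. Without the 2 libraries farthest from the median of Tff2, photon control replicates 2 and 5, these were r = 0.819 and r = 0.744. Tff3 was near the limit of detection, so its lowest log2 values depend on the prior count added to the counts.

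Tff1 correlated with Tff2 at r = 0.768 (rho = 0.796) and with Tff3 at r = 0.773 (rho = 0.790), each with an adjusted permutation p of 0.00018. Without the farthest libraries they were 0.715 and 0.760. Within the groups, Tff1 and Tff2 had r between 0.820 and 0.924 in all but the carbon-treated libraries, where it was 0.265, and Tff1 and Tff3 had 0.197 there. The 10 pairs among Tff1, Tff2, Tff3, Muc5ac and Muc6, a grouping made after the values were seen, had r between 0.575 and 0.856, and between 0.617 and 0.886 in the 25 M-titled libraries. Of these 10 pairs 8 were positive in each of the 4 groups. The exceptions were Tff3 with Muc5ac, at -0.40 in the carbon controls, and Muc5ac with Muc6, at -0.06 there.

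**Figure D3:**
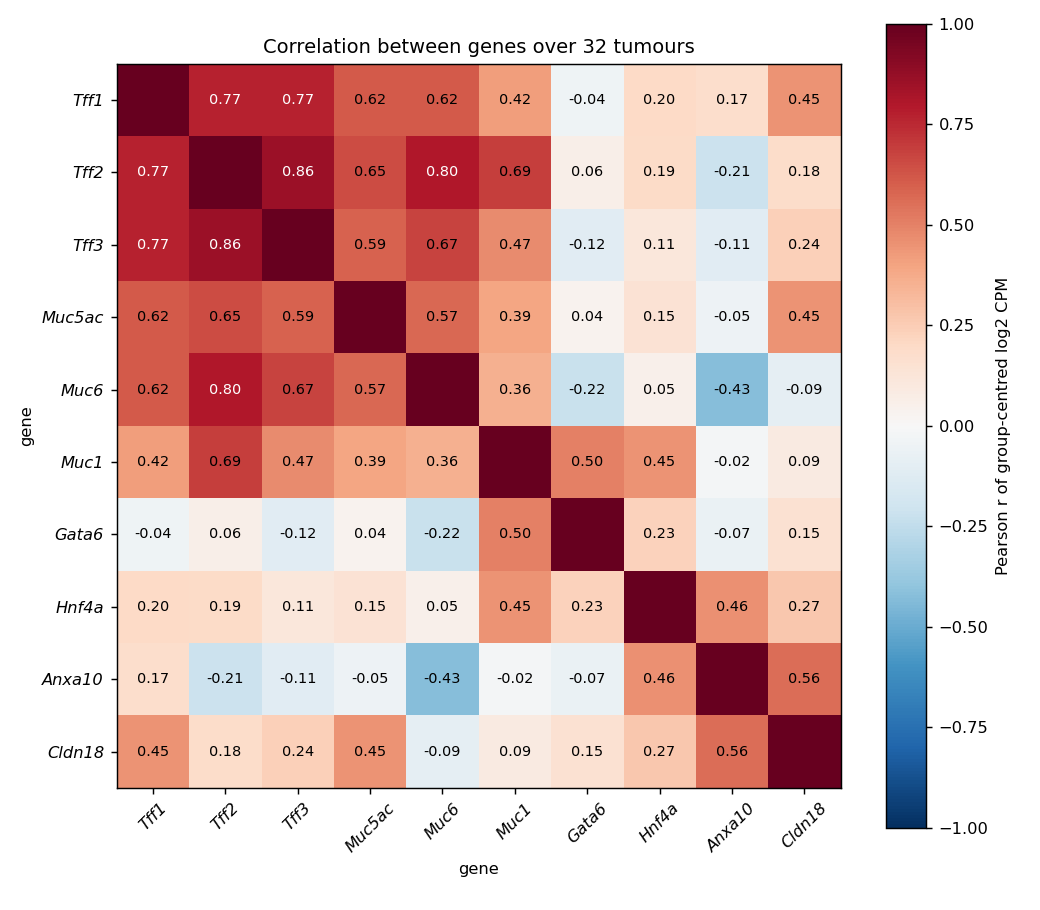
Pearson correlation of group-centred log2 CPM for each pair of the 10 genes over 32 tumours, with colour from negative to positive r. The block of Tff1, Tff2, Tff3, Muc5ac and Muc6 has r between 0.575 and 0.856, and the remaining pairs lie between -0.427 and 0.692.

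Of the 35 other pairs, 9 had an adjusted p under 0.05. Muc1 went with all 3 trefoil genes, with Tff2 at r = 0.692 (rho = 0.680, adjusted permutation p = 0.00018), with Tff3 at r = 0.474 (rho = 0.467, adjusted permutation p = 0.0168) and with Tff1 at r = 0.418 (rho = 0.390, adjusted permutation p = 0.0459, and 0.0808 for rho). Without the 2 farthest libraries these were 0.664, 0.529 and 0.306. Muc1 and Hnf4a had r = 0.449 (rho = 0.400, adjusted permutation p = 0.0458, and 0.0808 for rho), with -0.616 within the photon controls. Anxa10 and Cldn18 were correlated at r = 0.557 (rho = 0.523, adjusted permutation p = 0.00365), which was 0.506 without the 2 farthest libraries. Cldn18 also went with Tff1 at r = 0.451 (rho = 0.447, adjusted permutation p = 0.0290) and with Muc5ac at r = 0.448 (rho = 0.446, adjusted permutation p = 0.0459, and 0.0540 for rho), which were 0.337 and 0.372 without the 2 farthest libraries. Anxa10 and Hnf4a had r = 0.460 (rho = 0.501, adjusted permutation p = 0.00581). Muc6 and Anxa10 gave r = -0.427 with an adjusted permutation p of 0.115, and -0.125 without photon control replicates 2 and 7, so its size leaned on those libraries. Within groups this pair had r = -0.699 in the photon controls and -0.665 in the carbon-treated libraries. In the carbon controls it had -0.234 and in the photon-treated libraries 0.190. Gata6 and Muc1 had r = 0.503 (rho = 0.403, adjusted permutation p = 0.0191, and 0.0808 for rho), with -0.303 within the photon-treated libraries. Over all libraries Gata6 had r = -0.04 with Tff1 and -0.22 with Muc6, but the groups differed, with 0.699 for Tff1 in the carbon controls and -0.688 in the photon-treated libraries, where Muc6 was at -0.832. These differences between groups of 8 were not tested.

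**Figure D4:**
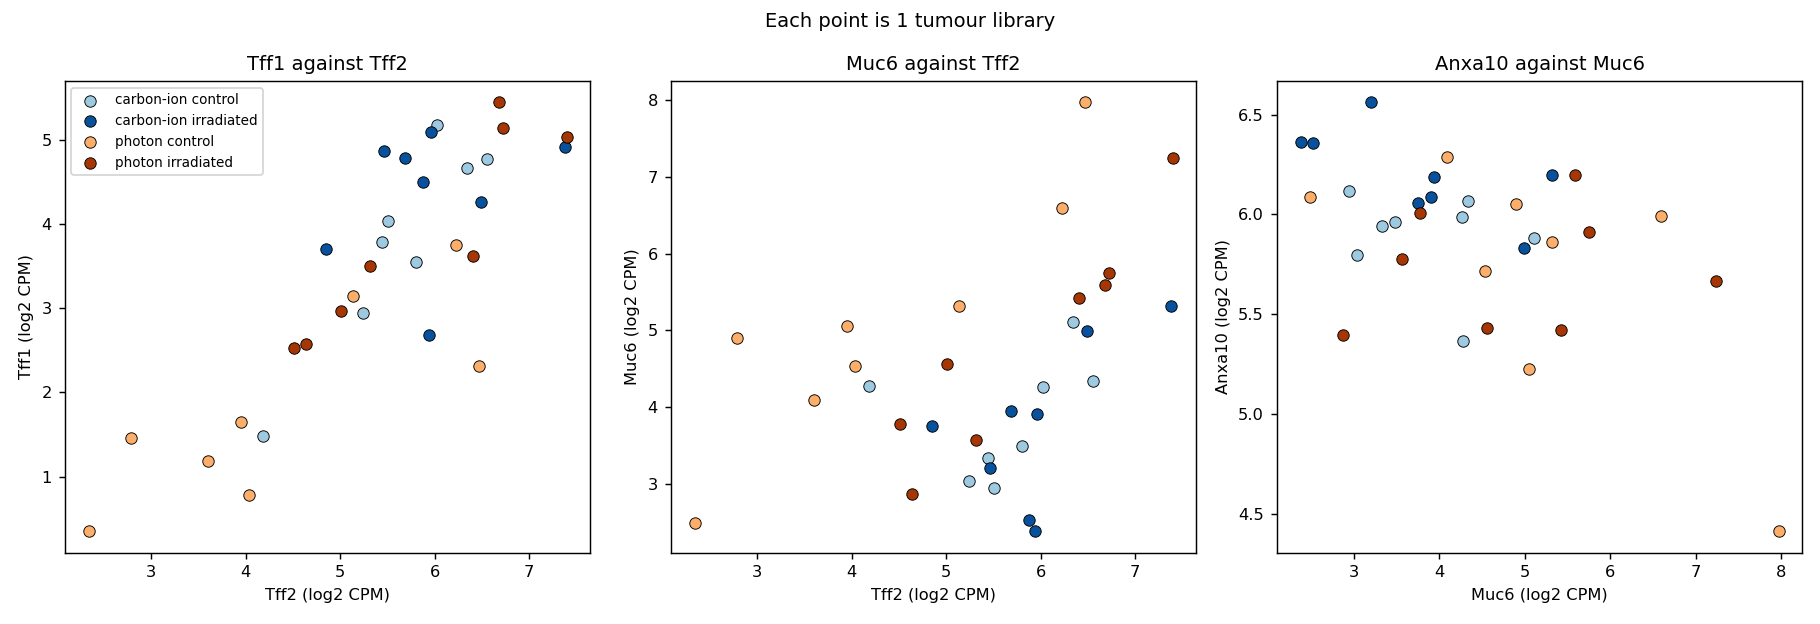
Levels of pairs of genes in log2 CPM, each point 1 tumour library coloured by group. Tff1 and Tff2 rise together (r = 0.768 after group means are subtracted) and so do Tff2 and Muc6 (r = 0.802). Anxa10 against Muc6 has r = -0.427, which is -0.125 without photon control replicates 2 and 7.

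Single tumours show how far the members could part. Photon control replicate 2 held 251 CPM of Muc6, 88.8 of Tff2 and 391 of Muc1, each the highest of its group, and 4.93 CPM of Tff1, where the group median was 2.89 CPM. The same library had 21.2 CPM of Anxa10, the lowest of all 32, and 0.618 CPM of Cldn18, also the lowest. Photon control replicate 5 was rich in nearly the whole secreted set, with 13.4 CPM of Tff1, 74.8 of Tff2, 1.92 of Tff3, 36.8 of Muc5ac and 96.8 of Muc6. Photon control replicate 7 was at the other end for most of that set, with 1.22 CPM of Tff1, 4.99 of Tff2, no Tff3 count and 5.54 CPM of Muc6. Its Muc5ac, at 2.44 CPM, lay near the group median of 2.62 CPM. In this library 3 counts equal 0.166 CPM, the highest such floor of its group.

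The genes most like the trefoil factors were sought among 15709 genes with a mean log2 CPM of at least 0, by the same group-centred correlation over 32 libraries, given here as a description. For Tff1 the nearest were Gkn1 (r = 0.846), Cwh43 (0.842), Gkn2 (0.840), Fam83e (0.813) and Ckmt1 (0.802). Gkn1 and Gkn2 are gastrokines, secreted proteins of the gastric surface. For Tff2 they were Ttc39a (0.881), Degs2 (0.865), Ckmt1 (0.864), Pigr (0.852) and Ern2 (0.848), of which Pigr carries antibodies across epithelia and Ern2 is a stress sensor of mucus-secreting cells. For Tff3 the nearest gene was Tff2 itself.

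Muc6 was nearest to Spdef (r = 0.860), a transcription factor of mucus-secreting cells, followed by Lgals12 (0.851), Cited4 (0.842), Bhlha15 (0.841), a factor of secretory cells, and Ern2 (0.838). Muc5ac was nearest to Lgr4 (0.810), a receptor for R-spondins, Rab27a (0.775), a regulator of vesicle secretion, and Gkn2 (0.751).

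Further gastric genes were read from lists. Of 16 gastric lineage genes 9 could be tested. None passed after carbon ions, where 0% of all genes passed, or after photons, where 3.81% did. Between the controls, where 9.14% of all genes passed, 1 was higher in the carbon arm, Vsig1, a junction protein of the stomach (log2 fold change 0.73 ± 0.19 SE, edgeR adjusted p 0.0167). Slc26a9, an anion transporter (-0.98 ± 0.30 SE, adjusted p 0.0344), and Pgc, a pepsinogen (-1.53 ± 0.50 SE, adjusted p 0.0483), were lower, as Muc6 was. The median over the 9 genes was 0.37, where that of all genes was -0.02. With a library left out, Vsig1 passed in 16 of 16 fits, Slc26a9 in 9 and Pgc in 4, and Pgc was at -0.82 without photon control replicate 2. With M-titled libraries alone, of which 4 are carbon controls, the values of Slc26a9 (-1.14, adjusted p 0.0905) and Pgc (-1.46, adjusted p 0.272) were of like size but did not pass, and Pgc passed under 3 of 7 alternatives. The gastrokines did not pass: Gkn1 had means of 22.001, 39.2, 14.4 and 15.1 CPM and Gkn2 of 19.3, 34.9, 10.2 and 10.8 CPM in the carbon controls, carbon-treated, photon control and photon-treated libraries.

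Of 17 genes of a classical pancreatic tumour list 11 were tested. None passed after carbon ions, where 0% of all genes passed, or after photons, where 3.81% did. Between the controls, 5.13% of all genes were higher in the carbon arm. In this list it was 1 of 11, the cathepsin E protease gene Ctse (544 ± 108 against 351 ± 92.4 CPM). Its log2 fold change was 0.63 ± 0.18 (SE), edgeR adjusted p = 0.0256. The list's median in that contrast was 0.26. Of 12 basal-like genes tested, 1 was higher in the carbon controls, Ly6d (2.20 ± 0.66 SE, adjusted p 0.0314), against the same 5.13% of all genes. None of the 12 passed after carbon ions or photons, where 0% and 3.81% of all genes did. Ctse and Ly6d each passed in 10 of 16 fits with a library left out, and Ly6d was at 1.08 (adjusted p 0.236) without carbon control replicate 5. Ctse was lost with M-titled libraries alone (0.46, adjusted p 0.281) and Ly6d by limma-voom (adjusted p 0.145). None of 3 other mucin genes tested passed in any contrast, where at most 9.14% of all genes did.

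Among 18 transcription factors of endoderm and epithelium tested, the median log2 fold change after photons was 0.16, and 14 of the 18 values were above 0. None passed as lower. Ehf, an ETS factor of epithelial cells, rose after photons, as did 1.71% of all genes, from 38.3 ± 16.04 to 68.6 ± 17.4 CPM (log2 fold change 0.84 ± 0.20 SE, edgeR adjusted p 0.0203). Ehf did not pass without photon control replicate 3 or photon-treated replicate 7. Between the controls of both arms, where 5.13% of all genes were higher and 4.01% lower, 3 factors were higher in the carbon arm, Ehf (1.002), Pdx1 (0.52) and Klf4, and 2 were lower, Sox9 and Cdx2, the intestinal master regulator (-1.59 ± 0.41 SE, adjusted p 0.0130). Of these 5, Sox9 passed in only 4 of 16 fits with a library left out, and the others in 16. With M-titled libraries alone Klf4 (0.40, adjusted p 0.115) and Sox9 (-0.44, adjusted p 0.141) did not pass. Markers of other cell types also moved with the photon contrast, in which 1.71% of all genes were higher and 2.10% lower. Lower were 2 of 9 fibroblast markers (median -0.52), 2 of 7 endothelial markers (median -0.45) and 2 of 7 macrophage markers (median -0.37). Of 7 T cell markers 2 were lower and 1 higher (median -1.28), and of 7 skeletal muscle markers none passed at a median of -3.10. Their part in the rise of Ehf was not tested.

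Of 9 genes next to the trefoil cluster 6 were tested. Of these, 1 was higher after photons, where 1.71% of all genes were, and 2 were higher in the carbon than in the photon controls, where 5.13% were. Pde9a, a phosphodiesterase gene, rose after photons from 2.70 to 4.91 CPM, with log2 fold change 0.86 ± 0.21 (SE), edgeR adjusted p = 0.0203. It was also higher in the carbon than in the photon controls (0.72, adjusted p 0.0265). Wdr4, a subunit of a transfer RNA methyltransferase, was higher there too (0.36, adjusted p 0.0196). These contrasts share the photon controls. With a library left out, Pde9a passed in 16 of 16 fits after photons, and between the controls it was lost without carbon control replicate 1 (adjusted p 0.0648) and with M-titled libraries alone (0.52, adjusted p 0.273).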

How the data were processed

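RNA-seq was measured in 32 libraries of KPC36 tumours, 8 in each of 4 groups taken from the treatment label. The authors deposited 1 table of estimated counts per gene, of which 4 of 853648 values above 0 were whole within 1e-06. FastQC 0.12.0, Trimmomatic 0.32, RSEM 1.3.3 and the build mm10 are named, with no role, per the submitters' processing notes. Counts were rounded, which altered library totals by at most 0.00403%. In R 4.3.3, edgeR 4.0.16 kept genes by filterByExpr (minimum count 10), scaled libraries by TMM and fitted 1 quasi-likelihood model to all groups. P-values were adjusted by Benjamini-Hochberg over 20474 genes, with a threshold of 0.05. CPM used the TMM-scaled totals and log2 CPM a prior count of 2. Precision follows the totals of 13891863 to 71645903 counts per library, and floors of 3 counts cover counting error only. Alternatives were DESeq2 1.42.0, limma-voom (limma 3.58.1), other scalings, no low-count filter, fits of only the groups compared, M-titled libraries alone and leaving out each library.

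Coordinates are those of GENCODE M21. The 10 members, the gene lists and the tests were chosen with earlier results of these data known. Named genes were the members, Gm15318, the 5 genes most correlated with a member and, per list, up to 3 genes that passed. Klf4, Sox9, the markers and the cluster's neighbours were named after their values were seen. The result of 1 further list gene is not reported here. Intervals are normal intervals from the SE. The labels do not say whether libraries came from separate animals, so p-values measure only the spread between these samples, which may be technical. Replicates are numbered in accession order. Tff1 was given no test between groups.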

Additional observations from a re-analysis of the deposited data

Results flagged for a closer look

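In each group of 8 libraries the highest and lowest values of the 10 genes were compared with their nearest neighbour. On the CPM scale the gap exceeded Dixon's critical share of the group's range in 9 of 40 group values, each at the high end. That share assumes normal values, which CPM need not be, and chance then flags about 1 in 20 groups. On log2 CPM, a scale added after the data were seen, none of the 9 passed and 3 others did, all low values of carbon control replicate 5: Muc1 at 126 CPM (next 209), Anxa10 at 41.2 CPM (next 55.6) and Gata6 at 58.9 CPM (next 71.5). The number and the end of these gaps therefore depend on the scale. The 9 values on the CPM scale follow. In carbon-treated replicate 7, Tff2 was at 166 CPM (next 90.2) and Muc5ac at 87.9 CPM (next 18.5). In photon control replicate 5, Tff3 was at 1.92 CPM (next 0.824) and Muc5ac at 36.8 CPM (next 11.7). In photon control replicate 2, Muc1 was at 391 CPM (next 260) and Muc6 at 251 CPM (next 96.8). Muc6 also stood alone in carbon control replicate 8 at 34.4 CPM (next 20.2) and in photon-treated replicate 7 at 152 CPM (next 53.8). Cldn18 in photon-treated replicate 2 was at 4.17 CPM (next 1.80).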

How the results depend on the processing

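Among the 9 tested members, 273 of 301 log2 fold changes under the alternatives other than leaving out a library kept their direction and their side of the threshold. The count between the controls was 0 without a low-count filter, 1 by limma-voom and 0 with M-titled libraries alone, and between the irradiated groups it was 1 by DESeq2 and 1 with M-titled libraries (Cldn18, 1.35, adjusted p 0.0411). Without a low-count filter the adjusted p was 0.0561 for Cldn18 and 0.0562 for Muc6. Leaving out each library gave 0 to 0 calls for the carbon-ion effect and the difference, 0 to 1 for the photon effect, 0 to 2 between the controls and 0 to 1 between the irradiated groups. Between the controls Cldn18 (1.03 to 1.39) and Muc6 (-2.17 to -1.11) each passed in 6 of 16 such fits. Cldn18 was lost without carbon control replicate 1, 2, 6, 7 or 8 or photon control replicate 2, 3, 4, 6 or 8. Muc6 was lost without carbon control replicate 1, 2, 3, 4, 6 or 7 or photon control replicate 2, 3, 5 or 6.

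Over all 5 contrasts of these members, 21 of the 301 values changed sign, as did 109 of 864 with 1 library left out, and 0 of either passed the threshold with the other sign. Those of values given in the text follow, and the rest concern values shown only in the plot of the contrasts. Tff3 after photons was 0.684 by limma-voom, against -0.10 by edgeR, and Gata6 after carbon ions was 0.0408 with M-titled libraries. For Hnf4a they were 0.0014 with DESeq2 size factors, 0.0271 with upper-quartile scaling and 0.0009 by DESeq2 after photons, and -0.0092 with upper-quartile scaling after carbon ions. Anxa10 after photons was 0.0595 by limma-voom, and Muc6 after carbon ions was -0.0246 with M-titled libraries. With 1 library left out at a time, the ranges that crossed 0 for the effects of each beam were -0.2431 to 1.2098 (Muc5ac), -0.2661 to 0.3207 (Muc6) and -0.0514 to 0.072 (Hnf4a) after carbon ions. After photons they were -0.6432 to 0.7058 (Tff3, same sign in 10 of 16 fits), -1.0992 to 0.329 (Muc6), -0.1669 to 0.0527 (Anxa10), -0.1241 to 0.5072 (Cldn18, below 0 only without photon-treated replicate 2) and -0.0377 to 0.0468 (Hnf4a).
The number of group values with a library standing apart was 9 on CPM and 3 on log2 CPM. The cause of these changes was not tested. No paired analysis was possible because replicate numbers follow accession order and the labels give none. Depth limits Tff3, which was under 3 counts in some libraries.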

Other observations

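Members outside the secreted block were most like other kinds of genes, again by group-centred correlation over 32 libraries and as a description. Anxa10 was nearest to Cyp51 (r = 0.832), Sqle (0.818), Cdhr2 (0.818), Capg (0.815) and Fdps (0.808), and Cyp51, Sqle and Fdps encode enzymes of cholesterol synthesis. Muc1 was nearest to Gal3st1 (0.910), Cx3cl1 (0.905), a membrane-bound chemokine, Slc44a3 (0.901), Prom1 (0.895) and Spint2 (0.894). Hnf4a was nearest to Pak4 (0.866), Cux1 (0.855), Lad1 (0.845), Fkbp4 (0.841) and Krt18 (0.833), a keratin of simple epithelia. Gata6 was nearest to Ifnlr1 (0.851), a receptor subunit for type III interferons, and Cldn18 to Rasgrf2 (0.815).

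Gata6 had negative r against the means of several marker lists, with -0.566 for macrophage, -0.561 for T cell, -0.509 for fibroblast and -0.455 for adipocyte markers. Muc1 did too, with -0.412, -0.420, -0.364 and -0.546 in the same order. Such values were not limited to them, with -0.556 for Hnf4a against T cell and -0.412 for Cldn18 against fibroblast markers. Muc6 was above 0 against both lists, at 0.250 and 0.176. Against the epithelial markers Tff1 had r = 0.460, Muc1 0.432, Cldn18 0.426, Tff2 0.406 and Anxa10 0.398. Hnf4a had 0.397, Tff3 0.298, Muc5ac 0.236, Muc6 0.229 and Gata6 0.138. Against the gastric lineage list the values were 0.941 for Tff2, 0.793 for Tff1, 0.767 for Muc6, 0.765 for Tff3 and 0.723 for Muc5ac. Outside the secreted block they were 0.716 for Muc1, 0.308 for Cldn18, 0.305 for Hnf4a, 0.129 for Gata6 and -0.0593 for Anxa10.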
